A study of Mus musculus with 4 samples.

Results

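Open chromatin was mapped by ATAC-seq, an assay that tags accessible DNA with a transposase, in hair follicle stem cells (HFSCs), which reside in the bulge niche and regrow the hair at each cycle. The results below concern 23 windows of 1 Mb in which peaks found only in the knockout list outnumbered peaks found only in the wild-type list by at least 12. Overlapping peaks (1 bp or more) from the knockout and wild-type lists were merged into regions, each autosome was divided into 1 Mb windows from its first base, and every region was placed by its midpoint. Of 77210 autosomal regions in 2214 windows, 881 regions fell in the 23 windows. These windows were selected on the counts of single-list regions, so those counts are a description and not a test.

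Double-knockout (dKO) mice carried Sox9-CreER, NFIBfl/fl, NFIXfl/fl and R26-YFPfl/fl, and wild-type (WT) littermates carried the same floxed and reporter alleles without the Cre. All mice were males at postnatal day 70 in second telogen, when follicles rest, and there were 2 mice of each genotype. CreER is a Cre that acts once its ligand is given, here in Sox9-expressing cells, which include the bulge, and the change is kept by their descendants. The induction schedule is not given in the sources used here, and the deleted exons of Nfib and Nfix were not analysed, so the lists do not check the deletion. Back skin cells that excluded DAPI, lacked Sca-1 and carried integrin alpha 6 and CD34 were sorted from every mouse. The dKO cells were also sorted as YFP-positive, so the gates differed by the reporter that marks Cre activity. Each genotype has a single deposited peak list that covers both of its mice, so no difference between genotypes has a replicate check and no p-value was computed. Regions are called dKO-only, WT-only or shared by the lists that have a peak in them.

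The nuclear factor I (NFI) family, made up of Nfia, Nfib, Nfic and Nfix, encodes transcription factors that bind DNA as dimers at a palindrome with the arms TTGGC and GCCAA, and also at a single arm. In HFSCs, NFIB and NFIX occupy enhancers that keep the cells in their lineage, together with factors such as SOX9 and LHX2. Open sites far from promoters are often enhancers, and genes with roles in development often lie beside long stretches without other genes that hold many of them.

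The autosomal part of the dKO list held 62002 peaks and that of the WT list 66590. The median pileup at the summit, in reads or fragments, was 38 in the dKO list and 73 in the WT list. The lowest common local background was 2.73 in the dKO list and 5.29 in the WT list, a WT to dKO ratio of 1.94. Whether both lists were called with the same control and scaling is not given in the sources used here, so this floor is an assumed depth scale. Pileups were divided by it before the lists were compared. Regions with a peak in both lists were present at all 7 marker genes of bulge cells that were checked, Krt15, Cd34, Itga6, Sox9, Lhx2, Nfatc1 and Tcf7l1, with 3 such regions at Krt15 and 24 at Nfatc1. A dKO-only region has no called WT peak, which does not mean that it had no WT reads. In bulk libraries, a site open in fewer cells and a site less open in every cell cannot be told apart.

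Promoter sequence was the only sequence read for these windows, and 5 promoters are shown because their peaks span the range of promoter values in the windows. That of Serp2, which encodes a small protein of the endoplasmic reticulum, lies under a dKO-only peak. Those of Wnt16, a secreted WNT ligand, and Ptprz1, a receptor-type tyrosine phosphatase, had the highest dKO level relative to WT among shared promoter peaks. Those of Ccdc91, a gene with a role in transport from the Golgi, and Btbd3, a BTB-domain gene known for its part in orienting neuronal dendrites, had the lowest. The sequences are the 250 bases before the annotated start, from RefSeq on GRCm38.p6, written 5′ to 3′ on the strand of the gene, with TTGGC or GCCAA in capitals. Serp2 lies at chr14:76556688-76556937 on the minus strand, Wnt16 at chr6:22287977-22288226, Ptprz1 at chr6:22875252-22875501, Ccdc91 at chr6:147475621-147475870 and Btbd3 at chr2:138256334-138256583, all 4 of the others on the plus strand.
Serp2: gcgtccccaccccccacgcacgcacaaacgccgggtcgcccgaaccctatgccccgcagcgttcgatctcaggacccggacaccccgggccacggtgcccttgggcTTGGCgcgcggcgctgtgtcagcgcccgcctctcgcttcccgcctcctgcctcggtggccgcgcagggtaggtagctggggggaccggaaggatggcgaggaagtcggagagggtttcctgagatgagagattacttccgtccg
Wnt16: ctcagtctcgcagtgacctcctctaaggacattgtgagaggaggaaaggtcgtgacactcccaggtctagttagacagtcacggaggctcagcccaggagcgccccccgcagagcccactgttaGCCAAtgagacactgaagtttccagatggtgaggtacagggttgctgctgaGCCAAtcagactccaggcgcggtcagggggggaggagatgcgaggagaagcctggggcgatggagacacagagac
Ptprz1: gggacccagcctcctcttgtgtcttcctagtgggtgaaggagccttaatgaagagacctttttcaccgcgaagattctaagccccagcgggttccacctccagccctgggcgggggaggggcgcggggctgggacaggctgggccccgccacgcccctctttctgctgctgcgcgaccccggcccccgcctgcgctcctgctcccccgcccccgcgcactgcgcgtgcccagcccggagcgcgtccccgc
Ccdc91: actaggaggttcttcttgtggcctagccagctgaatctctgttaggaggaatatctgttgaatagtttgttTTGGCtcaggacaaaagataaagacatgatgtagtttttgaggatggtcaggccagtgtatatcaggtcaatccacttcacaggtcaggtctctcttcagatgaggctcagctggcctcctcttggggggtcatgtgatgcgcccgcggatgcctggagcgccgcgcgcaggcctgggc
Btbd3: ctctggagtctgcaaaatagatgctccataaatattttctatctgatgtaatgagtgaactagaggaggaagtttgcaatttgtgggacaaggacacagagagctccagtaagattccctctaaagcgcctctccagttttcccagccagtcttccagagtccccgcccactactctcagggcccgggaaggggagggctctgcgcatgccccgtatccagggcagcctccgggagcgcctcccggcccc

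The NFI arm occurred 1 time in the Serp2 stretch, 2 times in that of Wnt16, 1 time in that of Ccdc91 and 0 times in those of Ptprz1 and Btbd3. TTGGC on either strand was found in 66 of 153 promoters in the 23 windows, or 43.1% (95% Wilson interval 35.6 to 51.1), against 41.5% of 31243 promoters elsewhere. Over all autosomal promoters of the same length the share was also 41.5%. The full palindrome, TTGGC and GCCAA with 5 bases between them, of which each arm is also a match to the shorter motif, was in 0 of 153 promoters, with a Wilson upper bound of 2.45%, against 12 elsewhere, or 0.0384%. A match in these letters is not a bound site. Median GC content was 48.4% in promoters of the windows and 52.4% elsewhere, and the median number of CpG dinucleotides was 4 in the windows and 6 elsewhere.

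In the 23 windows, 391 of 881 regions were dKO-only, a share of 44.4% (41.1 to 47.7), against 13.8% of the 76329 regions outside them. Over all autosomal regions the dKO-only share was 14.2%. WT-only regions numbered 61, or 6.92% (5.43 to 8.79) of those in the windows, against 21.3% outside them and 21.2% over all autosomal regions. The remaining 429 regions of the windows, or 48.7%, were shared, against 64.9% outside. These shares were fixed by the rule of selection, and nothing is read from them.

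The 23 windows were 1.04% of all windows and lay on 13 of 19 autosomes, with none next to another. The median window elsewhere had a net count, dKO-only minus WT-only, of -1. Net counts over all windows ran from -32 to 21, and 738 windows had a net above 0, 225 had 0 and 1251 had a net below 0. In the opposite direction, 192 windows had a net of -12 or less. The 23 windows were not rich in regions as such, with a median of 35 regions (range 19 to 67) against 32 elsewhere. Their median numbers of dKO-only and WT-only regions were 18 and 2, against 4 and 6 in other windows. Among the 46 windows next to them, 26 had a net above 0, or 56.5%, against 32.6% of the 2191 windows outside the 23. The median net of these neighbours was 1, with a range from -11 to 10.

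**Figure D1:**
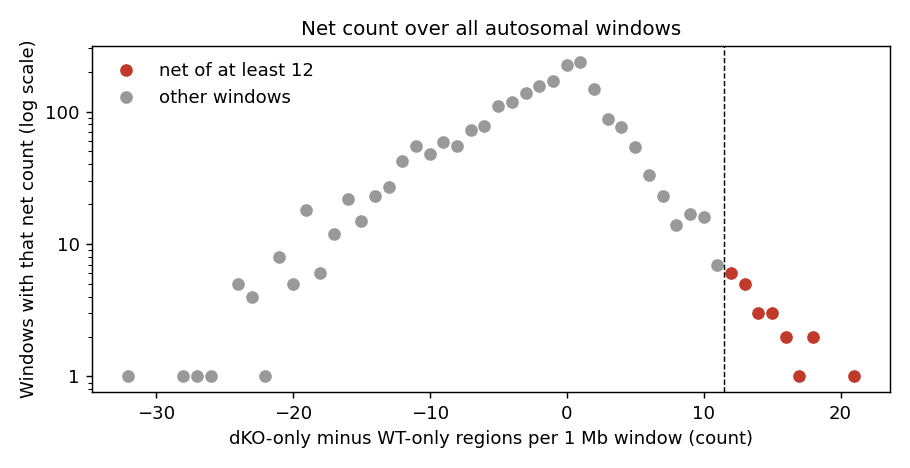
Number of 1 Mb autosomal windows (log scale) at each value of dKO-only minus WT-only regions, with the 23 windows of at least 12 in red and all others in grey. The distribution reaches further on the side of WT-only regions, down to -32, than on the side of dKO-only regions, up to 21, and 6 windows sit just inside the threshold against 7 just outside it.

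Windows just inside the threshold, at a net of 12, were those named here for Pthlh, Nfia, Prickle1, Cpa6, Nbas and Nkain2. A window is named for the coding gene given the largest count of its dKO-only regions, with ties broken by alphabet. That count can be a small part of them, as with 2 of 16 for Prickle1. The 7 windows just outside it, at 11, included those of Cemip2, Naaladl2, Il12rb2 and Tank, and 2 windows that no coding gene touches, at 76 to 77 Mb of chromosome 1 and at 171 to 172 Mb of chromosome 2. The chromosome 2 window held 11 dKO-only, 0 WT-only and 3 shared regions. Its shared regions had a median log2 dKO/WT of 3.20, above that of each of the 23 windows.

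**Figure D2:**
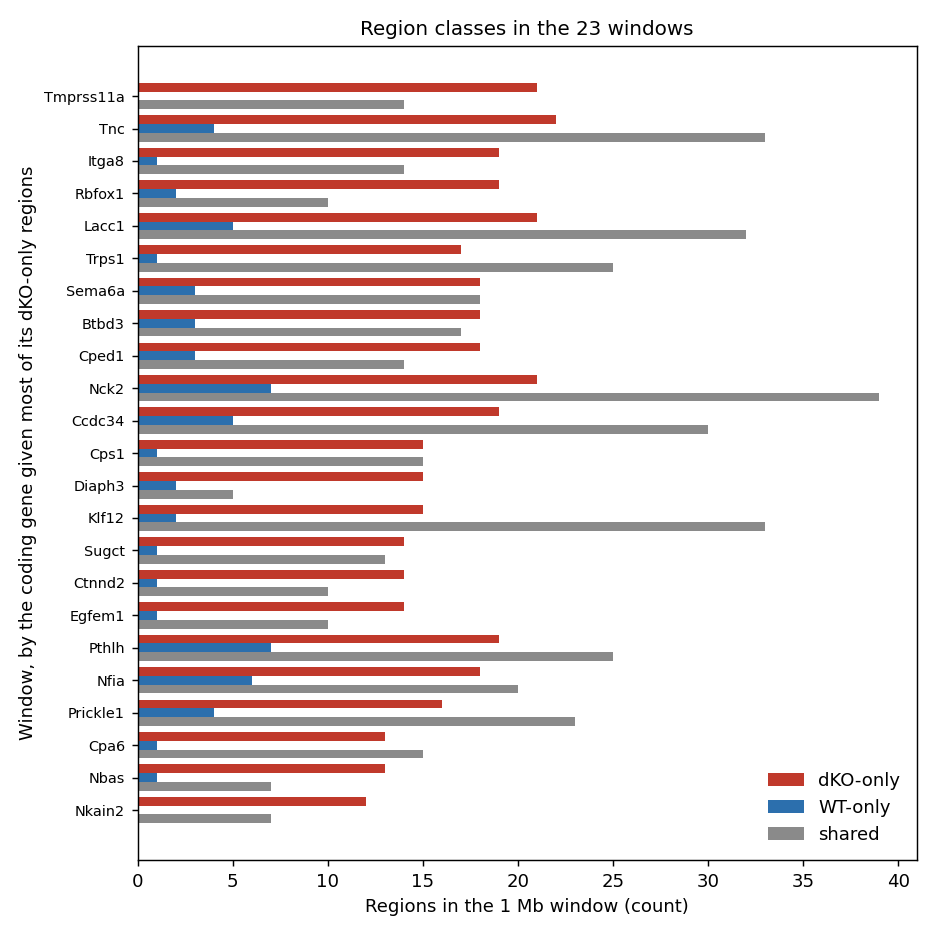
Number of dKO-only (red), WT-only (blue) and shared (grey) regions in each of the 23 windows, ordered by net count. Each window is named for the coding gene given the largest count of its dKO-only regions, which can be a small part of them. Ties were broken by alphabet, and the Lacc1 gene itself lies beyond the edge of its window. The dKO-only bars run from 12 to 22 and the WT-only bars from 0 to 7, while the shared bars vary most, from 5 to 39.

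The highest net count, 21, was in the window at 86 to 87 Mb of chromosome 5, which holds the Tmprss11 cluster. These genes encode serine proteases anchored in the membrane that are made by stratified epithelia. The window had 21 dKO-only, 0 WT-only and 14 shared regions. Tmprss11a had 8 dKO-only regions and no region of another class, and all 8 lay in its gene body. Tmprss11d had 3 and Tmprss11c had 2, also inside their bodies. Along chr5:86248323-86530785, a stretch of 282 kb from Tmprss11c to Tmprss11f, 14 dKO-only regions followed each other with no region that held a WT peak. Their summit pileups ran from 13 to 82 and their deposited fold, the authors' ratio of summit pileup to local background, from 3.05 to 10.8. This was the longest such run in the 23 windows, in which the median was 5 regions and the shortest 2. The shared regions next to it were higher in dKO on the scaled pileup, with 144 in dKO and 55 in WT on the Tmprss11c side (log2 2.34) and 24 in dKO and 23 in WT on the Tmprss11f side (log2 1.02).

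Matrix, adhesion and surface genes led several windows. The window of Tnc, which encodes tenascin C, a matrix glycoprotein of the bulge and of wounds, had 22 dKO-only, 4 WT-only and 33 shared regions. Tnc was the nearest gene to 7 of the dKO-only regions, and 5 in a row at the far end of the window, with no gene within 100 kb, spanned 404 kb. Wherever its regions lie, Tnc had 13 dKO-only, 2 WT-only and 21 shared regions. Around Itga8, the integrin alpha 8 subunit, there were 11 dKO-only, 0 WT-only and 1 shared region, and 6 of the dKO-only ones lay in the gene. A run of 10 dKO-only regions covered 277 kb there, at chr2:12011494-12288354, with pileups from 16 to 102. At Sema6a, a transmembrane semaphorin, there were 7 dKO-only, 2 WT-only and 10 shared regions.

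Several windows were touched by a single long gene or by 1 such gene and a neighbour. Rbfox1, an RNA-splicing factor of neurons and muscle, had 19 dKO-only regions in its window, all 19 in the gene body, with 2 WT-only and 10 shared. Its dKO-only pileups there had a median of 19 and ran from 12 to 70. Rbfox1 runs past the edges of the window and had 22 dKO-only, 5 WT-only and 20 shared regions wherever its regions lie. Ctnnd2, delta-catenin, a binding partner of cadherins, had 14 dKO-only, 1 WT-only and 9 shared regions, and Egfem1 had 14, 0 and 6. Nkain2, which encodes a membrane protein that interacts with a sodium pump subunit, had 12 dKO-only, 0 WT-only and 7 shared in its window. These 4 genes are on a list called synaptic and neural adhesion genes, although Rbfox1 and Nkain2 have the other roles given above. Of its 43 matched genes, 4, or 9.30%, lay in the windows, against 0.402% of all coding genes. The 4 are 609 to 1528 kb long, against a median of 17.4 kb for genes outside the windows, and length was not taken into account. Wherever its genes lie, the list had 758 regions, of which 242 were dKO-only, 155 WT-only and 361 shared. Over all autosomal regions, 14.2% were dKO-only and 21.2% WT-only. The counts of the list include the 4 genes in the windows, which were selected for dKO-only regions. The list was chosen with earlier results of these data known and is not independent evidence of a theme.

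**Figure D3:**
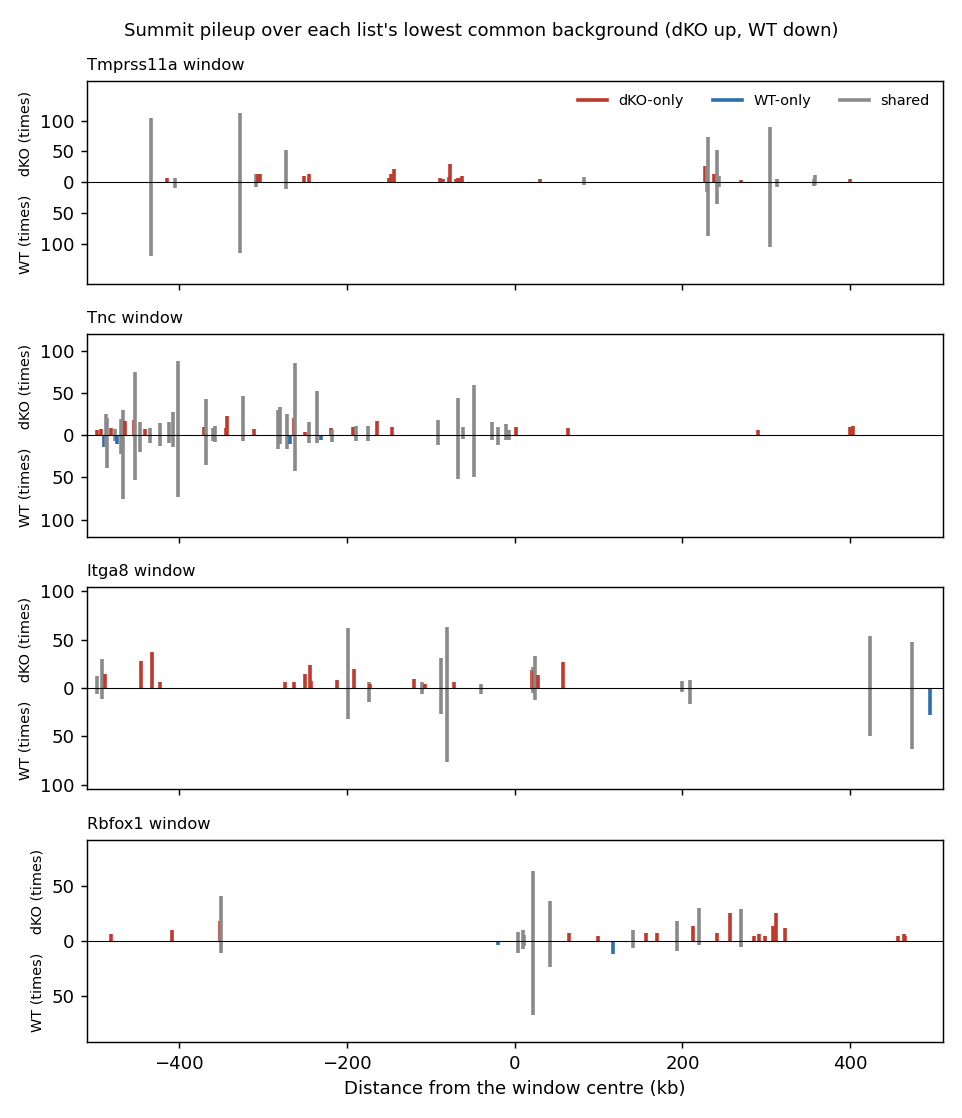
Summit pileup divided by the lowest common background of its list, for the dKO list (upward) and the WT list (downward), against distance from the window centre (kb) in the 4 windows with the highest net counts. Red bars are dKO-only, blue bars WT-only and grey bars shared regions. In the Tmprss11a window the dKO-only bars form a run that no WT bar interrupts, while the tall bars in all 4 windows are shared.

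Transcription factors and developmental regulators were also represented. Trps1, a GATA-type repressor needed for hair formation, had 10 dKO-only, 1 WT-only and 20 shared regions. Nfia, an NFI gene that was not floxed in these mice, had 14 dKO-only, 5 WT-only and 17 shared regions in its window, and all 14 lay in the gene body. Klf5, a zinc-finger factor of basal epithelium, had 1 dKO-only, 0 WT-only and 7 shared regions, in a window that also holds part of Klf12. Prickle1, a planar cell polarity gene, was nearest to only 2 of the 16 dKO-only regions of its window, because most lay over 100 kb from any gene. In that gap, chr15:93783024-93994823, a run of 11 dKO-only regions covered 212 kb.

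Some genes of secreted factors and receptors were looked up after the values were seen, and their classes varied. Inhba, the activin A subunit, had 0 dKO-only, 1 WT-only and 3 shared regions in its window, and 1, 1 and 4 wherever its regions lie. It shares with Sugct a window where 12 of 14 dKO-only regions fell within 200 kb, and 11 of them made a run of 93.1 kb without a coding gene within 100 kb, at chr13:16646752-16739857. Wnt16 had 0 dKO-only, 0 WT-only and 2 shared regions, while its neighbours Cped1 and Fam3c had 9 and 5 dKO-only regions. Pthlh, which encodes the parathyroid hormone-related protein made by epidermis and follicles, had 6 dKO-only, 3 WT-only and 7 shared. Lgr4, a receptor for R-spondins, touches the edge of a window and had 0 dKO-only, 1 WT-only and 1 shared region there, and 1, 5 and 14 wherever its regions lie.

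The other genes with the most dKO-only regions were of mixed function. Nck2, an adaptor protein of receptor signalling, had 10 dKO-only, 5 WT-only and 11 shared regions. Fhl2, a LIM-domain cofactor in the same window, had 6, 1 and 10. Cpa6, a carboxypeptidase, had 9 dKO-only, 1 WT-only and 6 shared, and Cps1, an enzyme of the urea cycle, had 6, 0 and 1. Btbd3 had 6 dKO-only, 2 WT-only and 8 shared regions, and none of its dKO-only regions lay in the gene. Ccdc34 had 6, 2 and 13, Ano3, of the anoctamin family, 5, 1 and 1, and Diaph3, a formin that builds actin filaments, 5, 0 and 0. These are counts within the windows. Diaph3 runs past the edge of its window and had 5, 1 and 7 wherever its regions lie. The 21 genes with at least 5 dKO-only regions held 189 of the 391, or 48.3%, and 133 had no coding gene within 100 kb.

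The 4 strongest dKO-only peaks each lay over 100 kb from a coding gene. The highest by -log10 q, the authors' measure of peak significance, was chr14:86438099-86439354, 217 kb from Diaph3, with a pileup of 166, a deposited fold of 10.7 and a -log10 q of 109. The next, chr6:147784508-147786480, 153 kb from Ccdc91, had a pileup of 162 and a fold of 10.7. The other two, chr15:93877966-93878671 and chr15:93792718-93793582, both in the gap beside Prickle1, had pileups of 100 and 84 and folds of 16.8 and 16.3. The 2 strongest WT-only peaks were inside genes. They were chr6:147568756-147569919 in Ccdc91, with a pileup of 184 and a fold of 9.62, and chr2:12993884-12995481 in Pter, with a pileup of 148 and a fold of 9.19.

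Peak strength within the dKO list did not enter the rule, but which peaks count as dKO-only comes from the same contrast as the rule. The differences below are therefore a description and no independent support. The dKO-only peaks of the 23 windows had a median deposited fold of 4.83 (quartiles 3.70 to 6.73), against 4.26 (3.43 to 5.51) for dKO-only peaks elsewhere. Their median pileup was 21, against 18 elsewhere, and their median width 488 bp, against 385.5 bp. In the windows 66 of 391 dKO-only peaks, or 16.9% (13.5 to 20.9), ranked in the stronger 50% of the dKO list by -log10 q, against 973 of 10540, or 9.23%, elsewhere. The difference was 7.65 percentage points, with a 95% interval of counting error from 3.89 to 11.4. That interval treats regions as independent, although those of 1 window share their surroundings. Most dKO-only peaks were therefore among the weaker peaks of their list in both places. For the 61 WT-only peaks of the windows, the median fold was 3.82 against 4.13 elsewhere, and 4, or 6.56%, ranked in the stronger 50% of the WT list, against 12.6%. That difference, -6.07 points, had an interval from -12.3 to 0.16 that included 0.

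Regions with a peak in both lists allow a comparison of heights. Over the 429 shared regions of the windows, the median log2 dKO/WT of background-scaled pileup was 0.37 (quartiles -0.16 to 1.08), against -0.14 (-0.51 to 0.29) over 49507 shared regions elsewhere. It comes from the same contrast as the rule and is a description. In the windows, 296 shared regions, or 69.0% (64.5 to 73.2), were above 0, against 40.3% elsewhere and 40.6% of all shared autosomal regions. A log2 of at least 1 was reached by 122, or 28.4%, against 7.25% elsewhere and 7.43% of all, and -1 or less by 21, or 4.90%, against 9.18% elsewhere and 9.14% of all. The medians are dKO to WT ratios of 1.29 in the windows and 0.908 elsewhere on the assumed depth scale, which adds 0.955 to every log2. With the authors' deposited fold in place of scaled pileup, the median log2 was 0.17 in the windows against 0.07 elsewhere, so the size of the difference depends on how local background enters.

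Pooled over all shared regions, the windows and the rest differed more in the WT values than in the dKO values. At promoters the order was the reverse, with median pileups of 173.5 in the windows and 125 elsewhere in the dKO list, and of 272.5 in the windows and 277 elsewhere in the WT list. Over all shared regions, the median dKO pileup was 48 in the windows and 48 elsewhere, and the median WT pileup was 62 in the windows and 104 elsewhere. As a multiple of the floor of its list, the median local background at shared regions was 1.92 in the windows and 1.97 elsewhere in the dKO list. In the WT list it was 1.17 in the windows and 2.41 elsewhere. Whether local background has a part in the peak calls of these windows was not tested.

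**Figure D4:**
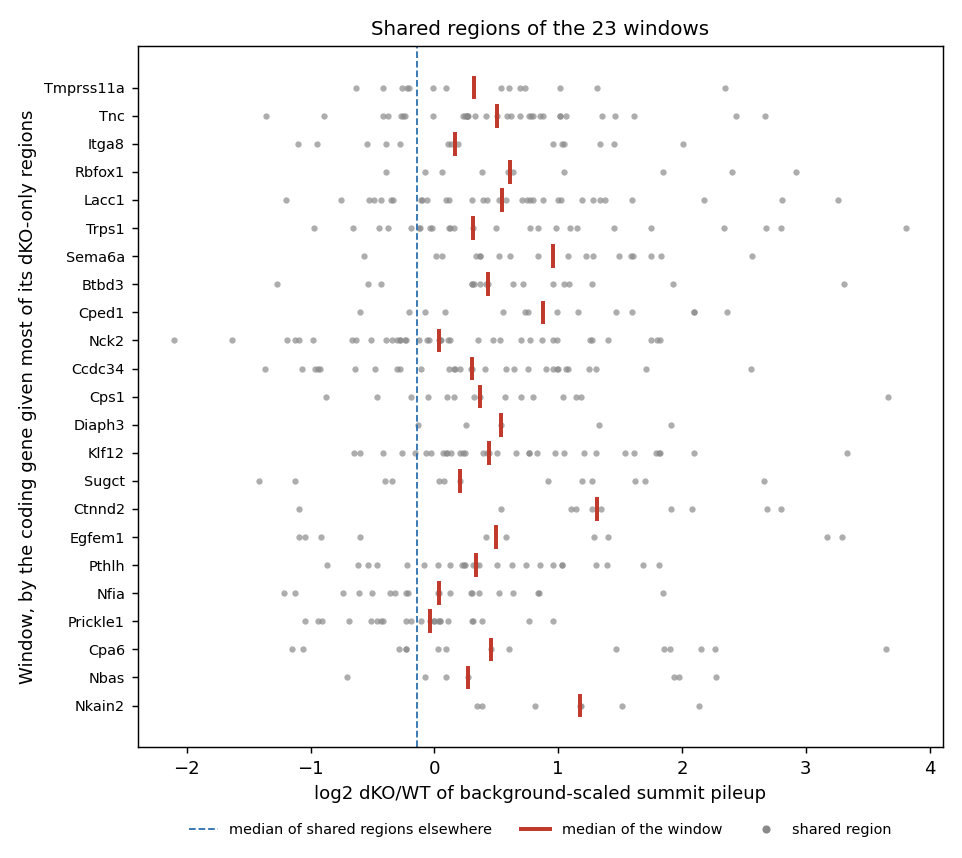
Log2 dKO/WT of background-scaled summit pileup for each shared region (grey points) of the 23 windows, with the median of each window (red bar) and the median of shared regions elsewhere (dashed line, -0.14). The window medians run from -0.03 to 1.31, all 23 right of the dashed line, while single regions in most windows lie on both sides of 0.

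By window, 22 of the 23 medians of shared regions were above 0, and 23 were above the median over all shared regions. The assumed depth scale adds 0.955 to every log2, so the sign of most of these medians rests on it. The order against the median over all shared regions does not. The highest window median was that of Ctnnd2, at 1.31 over 10 regions, followed by Nkain2 at 1.18 over 7 and Sema6a at 0.96 over 18. All 7 shared regions of Nkain2 were above 0, from 0.34 to 2.14. The lowest were Prickle1 at -0.03 over 23, Nfia at 0.03 over 20 and Nck2 at 0.03 over 39. The most uneven single region, chr15:50416948-50417988, 237 kb from Trps1, had a pileup of 159 in dKO cells against 22 in WT cells, a log2 of 3.81. Next was chr1:67285778-67287134, 55.2 kb from Cps1, with 124 in dKO and 19 in WT (3.66). At the other end, chr1:43173341-43174424 in Fhl2 had 41 in dKO and 341 in WT (-2.10), and chr1:43463931-43464944 in Nck2 had 28 in dKO and 169 in WT (-1.64). Both ends of the range occur in the windows, and the Nck2 window holds both of the lowest values.

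Few dKO-only regions lay at promoters. Of 153 promoters of 121 genes, coding and noncoding, in the windows, 65 lay under a peak, or 42.5% (34.9 to 50.4), against 45.8% elsewhere. Shared peaks covered 61 of them, dKO-only peaks 4 (2.61%) and WT-only peaks 0, against 0.845% under dKO-only and 1.03% under WT-only peaks elsewhere. The 4 belong to Serp2, which has 2 overlapping promoters, and to Gm36477 and Gm30246, predicted genes on the same window of chromosome 14. The Serp2 promoter peak had a pileup of 21 and a fold of 5.90 in dKO. Seen by region, 3 of 49 regions at promoters, or 6.12% (2.10 to 16.5), were dKO-only in the windows, against 46.6% of 832 regions away from promoters. Elsewhere these shares were 2.26% and 15.7%.

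The shared peaks at promoters of coding genes numbered 37, at 36 genes, of which 22 were above 0 on the log2 scale. Wnt16 stood highest at 1.60, with a pileup of 64 in dKO and 41 in WT. Ptprz1 followed at 1.47 (30 in dKO, 21 in WT), then Ctnnd2 at 1.34 (178 in dKO, 136 in WT) and Fibin at 1.08 (37 in dKO, 34 in WT). Below these 4, the promoters of Itga8 (0.95), Inhba (0.91), Nkain2 (0.82), Pthlh (0.63) and Tnc (0.51) were also above 0 on this scale. Before scaling, none of these had a higher pileup in dKO. Itga8 had 168 in dKO and 168 in WT, Inhba 206 in dKO and 212 in WT, and Nkain2 138 in dKO and 152 in WT. Pthlh had 291 in dKO and 365 in WT, and Tnc 204 in dKO and 278 in WT. Their sign therefore rests on the assumed depth scale. No promoter reached -1. Ccdc91 was lowest at -0.46, with 192 in dKO and 512 in WT, then 1 of the promoters of Btbd3 at -0.43, with 178 in dKO and 466 in WT. Btbd3 and Tsc22d1 each had another promoter above 0, at 0.32 and 0.57, so promoters of the same gene differed in sign. Tpp2, a peptidase (-0.28), Ythdc1, a reader of methylated RNA (-0.22), and Cenpc1, a centromere protein (-0.20), were among those below 0. So were Nck2 (-0.06) and the other promoter of Tsc22d1 (-0.33). Whether the sign goes with the role of the gene was not tested.

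**Figure D5:**
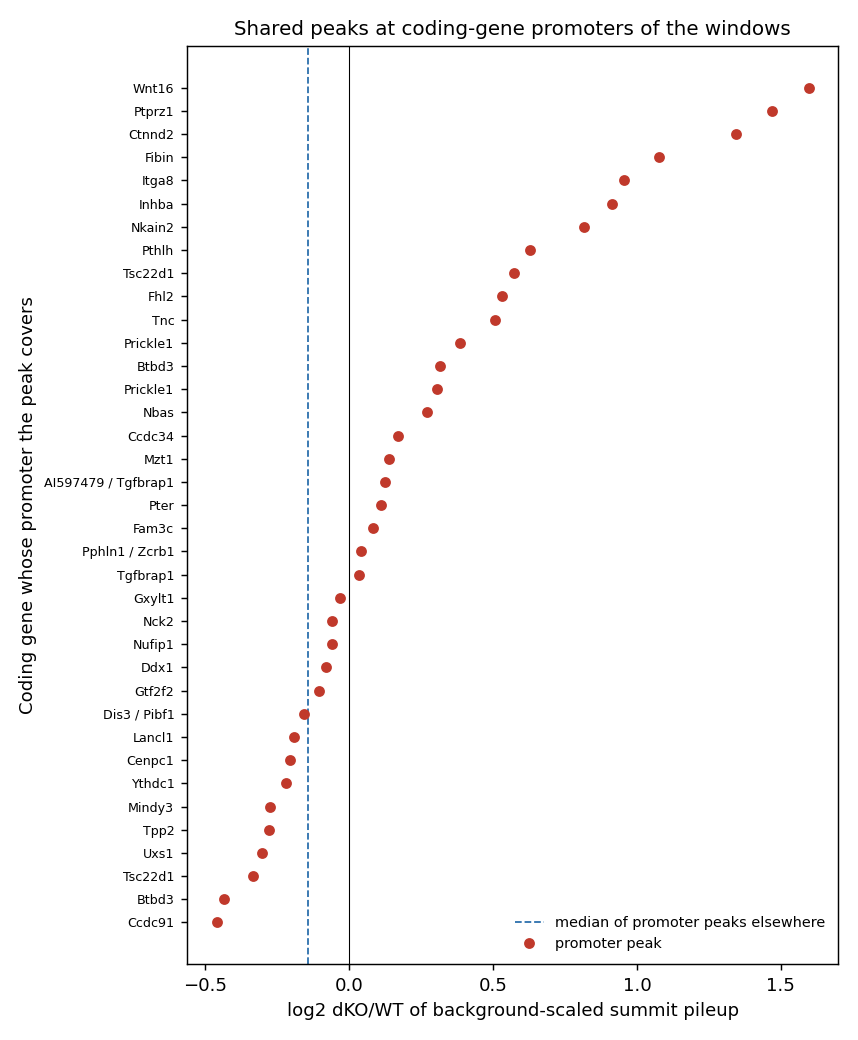
Log2 dKO/WT of background-scaled summit pileup at the 37 shared peaks over promoters of coding genes in the 23 windows, ordered by value, with the median of promoter peaks elsewhere as a dashed line (-0.14). Values run from -0.46 at Ccdc91 to 1.60 at Wnt16, and 4 peaks reach 1.

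Over all 46 shared regions at promoters in the windows, noncoding genes included, the median log2 was 0.15, against -0.14 elsewhere. Away from promoters it was 0.41 over 383 regions in the windows, against -0.14 elsewhere. Median pileups away from promoters were 44 in dKO and 57 in WT in the windows, against 39 in dKO and 83 in WT elsewhere.

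The rule did not use the position of regions relative to genes, but position goes with region class outside the windows too, so the differences below are a description and no independent support. In the windows, 383 of 881 regions, or 43.5%, lay inside a coding gene, against 56.3% elsewhere, a difference of -12.9 points (-16.2 to -9.57). Regions over 100 kb from any coding gene made up 29.6% in the windows against 10.2% elsewhere, a difference of 19.5 points (16.5 to 22.5). The same held for shared regions alone, at 26.8% in the windows and 8.39% elsewhere. Among dKO-only regions these shares were 34.0% and 18.4%, a difference of 15.6 points (10.9 to 20.4). The median distance of a dKO-only region to a coding gene was 36.4 kb in the windows and 1.92 kb elsewhere.

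The 23 windows were touched by a median of 2 coding genes (range 1 to 14), against 6 (0 to 67) for other windows. At most 2 coding genes touched 13 of the 23 windows, against 24.0% of the others, and 8 windows were touched by 1. The 83 genes concerned, 0.402% of 20661, had a median length of 62.0 kb, against 17.4 kb for other genes. Gene density moved with the net count outside the windows too. In 403 other windows with 1 or 2 coding genes the median net was 1, and 22.1% of regions were dKO-only and 20.9% WT-only, whereas in 247 with over 20 genes the median net was -6 and the shares were 7.21% and 19.5%. The part of gene density in the counts of the 23 windows was not tested.

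Within a window the dKO-only regions were spread out. They spanned a median of 828 kb (546 to 983), and the densest 200 kb held a median of 46.2% of them. In 9 windows that stretch held at least 50%, with the highest share, 85.7%, in the Sugct window, which is also that of Inhba, and the lowest, 33.3%, in that of Nkain2. The runs of 10 or more regions in the Tmprss11a, Sugct, Prickle1 and Itga8 windows were thus longer than the median run of 5.

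Over all coding genes, 0.402% touched a window, a share that takes no account of gene length. Of 30 bulge identity genes 1 lay in a window, Nfia. Of 11 matched hair lineage genes 1 did, Trps1, and of 18 wound and stress genes 2 did, Klf5 and Tnc. Nfia is 541 kb long, Trps1 236 kb, Tnc 87.2 kb and Klf5 14.7 kb, against a median of 17.4 kb for genes outside the windows. The part of length in these counts was not tested. None of 23 axon guidance genes, 33 cadherins outside the protocadherin clusters, 118 glutamate receptor and potassium channel genes or 1458 olfactory and vomeronasal receptor genes did. The marker lists of other skin cells are short, so that a count of 0 is also near that share. In the windows lay 0 of 7 fibroblast, 0 of 7 melanocyte, 0 of 6 endothelial, 0 of 5 immune and 0 of 5 Schwann cell and neural crest genes. At these markers, wherever they lie, there were 3 dKO-only, 11 WT-only and 16 shared regions for fibroblasts, 5, 11 and 27 for melanocytes and 9, 11 and 25 for endothelium. For immune cells there were 3, 2 and 2, and for Schwann cells and neural crest 0, 1 and 12. Over all autosomal regions, 14.2% were dKO-only and 21.2% WT-only. The marker counts are small and were not tested.

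The number of windows depends on how the lists are compared. Keeping peaks with a q value of 1e-05 or less left 7 windows with a net of at least 12. Lists shortened to equal length gave 51, and single-list peaks restricted to the stronger 50% of each list gave 0, where the dKO-only share of the 23 windows was 13.2%, against 1.96% of all regions under that setting. Windows moved by 0.5 Mb again numbered 23, but 11 of them overlapped the original windows. The net count was above 0 in all 23 windows under the overlap of 50%, summits within 200 bp and the q value. It was also above 0 in all 23 under equal lengths and thinning of WT, which remove WT peaks only. For the stronger peaks it was above 0 in 21 of them. The 23 windows were chosen for a net of at least 12 on these same peaks, so a net that stays above 0 is no independent support.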

How the data were processed

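ATAC-seq peak lists of HFSCs from 4 mice were analysed. Per the submitters' processing notes, the tools were Bowtie2 2.2.9, MACS2 and Picard and the builds mm10 and GRCm38, without their role or order. Not given in the sources used here were the transposase shift, duplicate handling, calling settings and the way mice were combined. The authors' signal column holds summit pileups, whole numbers of reads or fragments without depth scaling. Their deposited fold is a ratio, with 1 added to both the pileup and the local background. The authors also deposited -log10 p-values and -log10 q values, and the weakest peak in either list had a q value of 0.0497 in dKO and 0.0496 in WT. Column names were damaged in the deposited tables, so their order and a recomputed Poisson -log10 p identified them, which matched within 0.001 for 99.997% of 62822 dKO and 99.98% of 62811 WT peaks.

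Peaks overlapping by at least 1 bp were merged (pandas 2.3.3), and the overlaps matched bedtools 2.31.1 with a difference of 0. The local background was solved from fold and pileup, and pileups were divided by its lowest common value in each list (at 17998 dKO and 19918 WT peaks). Genes and promoters came from RefSeq tables of GRCm38.p6, to which mm10 corresponds. A genome sequence was not used here, so motifs were searched in promoters and not in peaks. The merging and window steps were tested on simulated data.

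Members and gene lists were chosen with earlier results of these data known. Named are windows with the highest net and at the threshold, the 20 genes with the most dKO-only regions (21 with a tie at 5), the 4 with the most shared regions, the peaks with the highest -log10 q or extreme log2 in each class, list members, and genes at promoter peaks; the others named, in the Tmprss11 cluster and among secreted factors and receptors, were chosen after their values were seen. Of the windows just outside the threshold, 1 is not reported here. Intervals are Wilson 95% for shares and normal 95% for differences, and cover counting error only.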

Additional observations from a re-analysis of the deposited data

How the results depend on the processing

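The count of 23 windows became 7 with q values of 1e-05 or less, 51 with lists of equal length, 0 with single-list peaks from the stronger 50%, 46 with a net of at least 10 and 9 with at least 15. The 7 windows were among the 23, and the 51 included all 23. It was 23 with a 50% overlap, 25 with summits within 200 bp, 29 with the WT list thinned to the dKO background and 23 with windows moved by 0.5 Mb. The dKO-only share of 44.4% became 39.5% for the q value (11.3% of all regions there), 13.2% for the stronger 50% (1.96% of all regions there) and 39.8% for a net of at least 10. The summed net of 330 became 62 for the stronger 50%. The median log2 of shared regions was 0.17 with the deposited fold, against 0.07 elsewhere. With all gene types the median genes per window were 12, against 17 elsewhere, and the share inside genes was 54.8%, against 65.1% elsewhere. That share was 40.2% for a net of at least 10. The median fold of dKO-only peaks was 5.90 for the q value, against 5.10 elsewhere. The cause of these changes was not tested. In all, 14 values moved and 22 did not. None changed direction, but counts of windows, shares, gene numbers and folds have no sign to change. The summed net was taken over windows chosen for a high net, so its sign is no support either. A count was taken as moved if it changed by over 1.5 times, and a share or median if it left the 95% interval of the reported value. No mouse could be left out because each list covers both mice of its genotype. No paired analysis was possible because the labels share no replicate numbers between genotypes and there is 1 list for each. The lower floor of the dKO list, if it reflects depth, would limit the detection of weak dKO peaks, and a site called in a single list may have signal below the threshold in the other.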
